A study of Mus musculus with 27 samples.

Results

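The microRNAs described here are those at the distal end of Mirg, the microRNA-containing noncoding gene at the far end of the Gtl2-Rian-Mirg locus of mouse chromosome 12. The group was chosen with earlier results of these data known. Its members were defined by position, as every mature microRNA of the deposited tables from miR-539 to the end of the locus, on either strand. This gave 31 mature microRNAs of 16 hairpins, of 2035 loci in all. All 31 lie on the plus strand of chromosome 12, over 19814 bp that start at position 110966346 of mouse genome build mm9 with miR-539-5p and end with miR-3072-3p. Among them are miR-541-5p at chr12:110980632-110980656 and miR-409-3p at chr12:110981414-110981435, on which several results turn. MiR-487b, which lies between miR-381 and miR-539 and ends at 110965613, was counted with the upstream Mirg microRNAs. No gene annotation of build mm9 was used, so exons and introns are not given.

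MicroRNAs are cut by Drosha and Dicer from hairpins, each of which can yield a 5p and a 3p arm. A mature microRNA recognises messenger RNAs mainly through its seed, bases 2 to 8. Mirg belongs to the imprinted Dlk1-Dio3 domain, in which the noncoding RNAs and their microRNAs come from the maternal chromosome and a methylated control region keeps the paternal copies silent. In ES cells the activity of these noncoding genes is known to differ between lines and has been linked to developmental potential, and several of the microRNAs are best known from neurons.

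The study used mouse embryonic stem (ES) cells of strain label cj7, kept in serum with leukemia inhibitory factor, in 4 genotypes, which were wild-type, Ezh2-/-, Eed-/- and Jarid2-/-. PRC2 is the Polycomb complex that methylates histone H3 on a lysine of silent chromatin. Ezh2 is its catalytic subunit, Eed a core subunit that it cannot do without, and Jarid2 an accessory subunit that helps direct it. The title of the series poses the question of how PRC2 relates to DNA methylation of the maternal copy of this locus. The labels list 7 small RNA samples, of which Jarid2-/- has 1 and each other genotype 2, and no treatment. How many independent clones stand for each genotype is not given in the sources used here.

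Each genotype was represented by 1 column of counts, with between 8485806 microRNA counts (Jarid2-/-) and 42293019 (Eed-/-). There was therefore no replicate check of any difference and no test between genotypes. Levels are counts-per-million microRNA counts (CPM). Ranges in parentheses are exact 95% intervals, binomial for folds and shares. These intervals express counting error alone, since PCR copies of a molecule are not independent reads. The level that a count of 0 allows, set at 3 counts per column, was 0.126 CPM in wild-type, 0.0709 CPM in Eed-/-, 0.0935 CPM in Ezh2-/- and 0.354 CPM in Jarid2-/-.

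The sequences below are those of the 10 most abundant of these microRNAs in wild-type cells, in falling order of level, followed by miR-541-3p, whose partner arm behaved differently from the rest. Capitals mark the seed, and all are mature RNA sequences from the deposited tables, 5′ to 3′.
miR-409-3p: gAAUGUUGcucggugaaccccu
miR-154-3p: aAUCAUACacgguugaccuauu
miR-485-3p: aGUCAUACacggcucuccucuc
miR-541-5p: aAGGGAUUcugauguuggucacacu
miR-382-5p: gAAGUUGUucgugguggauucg
miR-134-5p: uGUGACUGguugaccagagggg
miR-409-5p: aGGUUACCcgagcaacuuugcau
miR-369-3p: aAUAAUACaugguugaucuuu
miR-369-5p: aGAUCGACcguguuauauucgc
miR-410-3p: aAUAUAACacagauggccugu
miR-541-3p: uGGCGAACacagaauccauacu

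No 2 of these 11 share a seed. Of all 31 members, 21 had a seed found at no other locus of the tables, and a single pair of members shared one, miR-453 and miR-496a-5p. Outside the group, miR-539-3p has the seed of miR-381-3p, upstream in Mirg, miR-410-5p that of miR-494-5p, also in Mirg, and miR-410-3p that of the miR-344d-3p and miR-344e-3p loci. MiR-134-3p, miR-668-5p, miR-485-5p, miR-377-5p and miR-412-3p each have a seed also found outside the Gtl2-Rian-Mirg locus. None of the 31 had a second locus, and none came within 3 mismatches of another mature sequence when compared from the 5′ end without gaps. The RefSeq microRNA table (GRCm38.p6) held 29 of the 31 names, all 29 with the same sequence.

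Related sequences were nevertheless common on each arm. The letters AGGUU occur in 6 of the 31 members, of which 5 are 5p arms and the sixth is miR-453, in 4 of the 46 upstream Mirg loci (8.70%) and in 46 of 1920 loci (2.40%) outside the Gtl2-Rian-Mirg locus. The letters UACANGG occur in 5 members, all 3p arms, again in 4 of the 46 upstream Mirg loci, and in 11 of 1920 (0.573%) outside the locus. The likeness is therefore shared with the rest of Mirg. Both strings were chosen after the sequences were read, were searched for in the mature RNA as written, and do not overlap each other in any member. They are capitalised here to show how alike neighbouring hairpins are.
miR-453: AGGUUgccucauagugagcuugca
miR-496a-5p: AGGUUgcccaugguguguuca
miR-377-5p: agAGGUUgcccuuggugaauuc
miR-154-5p: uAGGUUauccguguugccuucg
miR-409-5p: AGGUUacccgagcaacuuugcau
miR-410-5p: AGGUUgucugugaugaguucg
miR-154-3p: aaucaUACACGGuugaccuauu
miR-485-3p: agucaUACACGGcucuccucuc
miR-369-3p: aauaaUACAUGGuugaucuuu
miR-496a-3p: ugaguauUACAUGGccaaucuc
miR-539-3p: caUACAAGGauaauuucuuuuu

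The distal Mirg microRNAs supplied 332857 counts in wild-type cells, a share of 1.40% (1.39 to 1.40%). Their share was 0.309% (0.307 to 0.310%) in Eed-/-, 0.0797% (0.0778 to 0.0816%) in Jarid2-/- and 0.00162% (0.00148 to 0.00176%) in Ezh2-/-, where 519 counts remained. Relative to wild-type, Eed-/- cells thus had a 4.53-fold lower summed level (4.50 to 4.56). The difference was 17.6-fold (17.1 to 18.0) for Jarid2-/- and 865-fold (793 to 944) for Ezh2-/-. Between the mutants, Eed-/- stood 3.87-fold above Jarid2-/- (3.78 to 3.97), and Jarid2-/- 49.3-fold above Ezh2-/- (45.0 to 54.0). The Eed-/- value depended on 1 microRNA, miR-541-5p, without which the summed level was 7.67-fold lower (7.61 to 7.73). Jarid2-/- was then 21.9-fold lower (21.3 to 22.5), so Eed-/- and Jarid2-/- also differed less. Without miR-409-3p the Jarid2-/- sum was 12.5-fold lower (12.2 to 12.9). With the denominators of the authors' reads-per-million values in place of the microRNA total the Eed-/- sum was 2.77-fold lower. With TMM scaling the Ezh2-/- sum was 522-fold lower.

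A microRNA was counted as lower or higher when its CPM ratio, with 1 CPM added to both levels, was at least 2-fold, provided that either column held at least 10 counts. Of the 31 members 29 met that minimum in each mutant. The remaining pair were miR-453, at 0 counts in all 4 columns, and miR-544-5p, with 8 counts in wild-type and 0 to 7 in the mutants. In Eed-/- 25 of the 29 were lower, where 15% of all 1096 loci tested were lower and 7.56% of those outside the Gtl2-Rian-Mirg locus. In Ezh2-/- all 29 were lower, against 24.5% of 1000 loci and 16.2% outside the locus. Only 9 of them held at least 10 counts in that column, so the others were tested through their wild-type counts alone. In Jarid2-/- 28 of 29 were lower, against 22.8% of 950 loci and 14.2% outside the locus. Over the whole Gtl2-Rian-Mirg locus, members included, 85.6% (Eed-/-), 96.2% (Ezh2-/-) and 94.2% (Jarid2-/-) of tested loci were lower. By this limit 0 members were higher in any mutant, where 17.5% (Eed-/-), 4.9% (Ezh2-/-) and 16.3% (Jarid2-/-) of all loci were. The split of all loci past the limit depended on the scaling. In Eed-/- 46.1% of them were lower, 59.9% under median-ratio size factors, 23.0% under the reads-per-million denominators. In Ezh2-/- it was 83.3% and 52.9% with TMM, and in Jarid2-/- 58.3% and 41.5% with the reads-per-million denominators. The median log2 ratio of the members was -2.51 in Eed-/-, -6.57 in Ezh2-/- and -3.29 in Jarid2-/-, beside 0.08, -0.44 and -0.17 over all loci tested. Since every mutant was set against the same wild-type column, these 3 comparisons are not independent of each other.

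**Figure D1:**
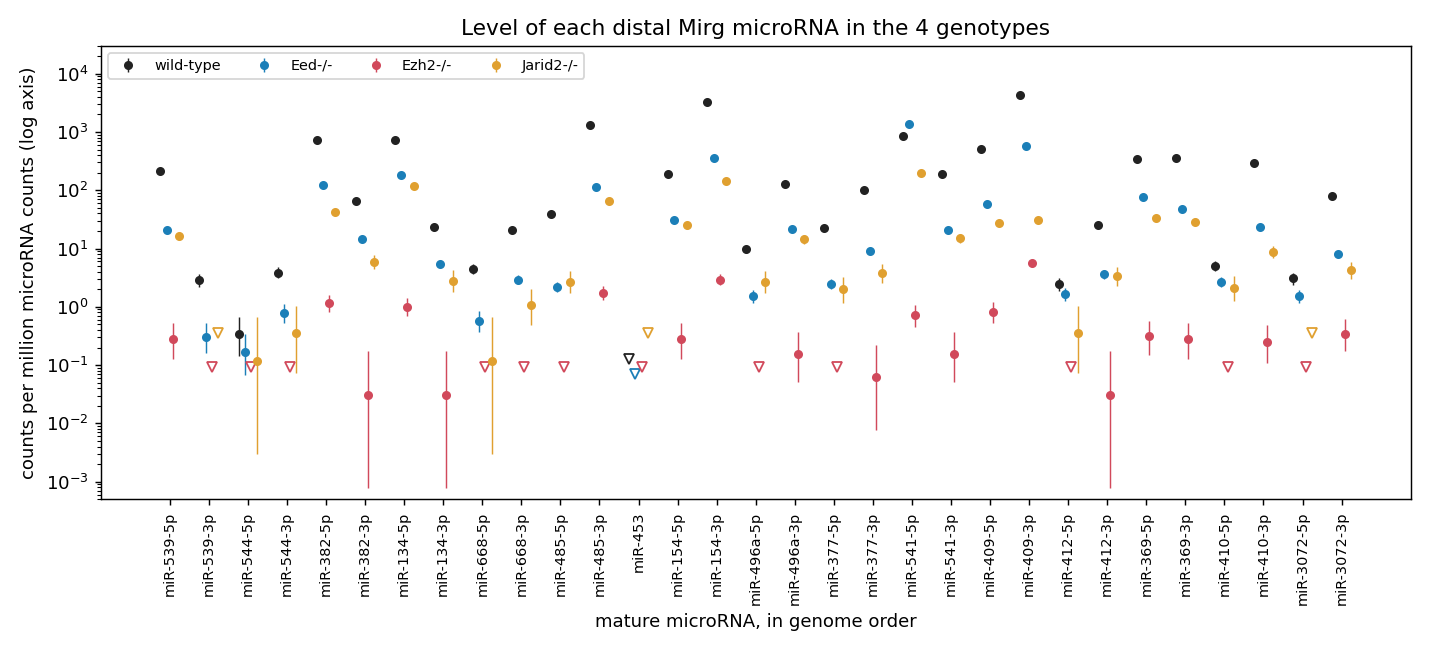
Level of each of the 31 distal Mirg microRNAs in genome order, in counts-per-million microRNA counts on a log axis, with 1 point per genotype and exact 95% Poisson intervals. Open triangles mark 0 counts and sit at the level 3 counts would give. Wild-type (black) is the highest point of each member with at least 10 wild-type counts except miR-541-5p, and Ezh2-/- (red) is the lowest or at 0 counts.

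The most abundant member in wild-type was miR-409-3p, rank 33 among all loci, a microRNA studied in tumour invasion. Its level was 4383 CPM in wild-type, 583 CPM in Eed-/-, 30.9 CPM in Jarid2-/- and 5.64 CPM in Ezh2-/-, from 104289, 24647, 262 and 181 counts. It stood apart in Jarid2-/-, at 141.96-fold lower (126 to 161), the largest fold of any member there, while its 7.52-fold lower level (7.42 to 7.63) in Eed-/- equalled the median of the 25 lower members.

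MiR-154-3p and miR-485-3p, which both carry the UACANGG letters, were the next most abundant. The miR-485 hairpin is known from neurons, where it acts on the synaptic vesicle protein SV2A. MiR-154-3p was at 3318 CPM in wild-type, 351 in Eed-/-, 142.2 in Jarid2-/- and 2.93 in Ezh2-/-. MiR-485-3p was at 1339, 115, 66.3 and 1.71 CPM in the same order. Their folds below wild-type were 9.45 (9.28 to 9.61) and 11.6 (11.3 to 11.97) in Eed-/-, and 23.3 (22.0 to 24.7) and 20.2 (18.6 to 22.0) in Jarid2-/-. Both therefore lay further below wild-type than the group's sum in Eed-/- and somewhat further in Jarid2-/-.

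MiR-541-5p, studied for its effect on neurite outgrowth, was the exception of the group. Its level was 849.8 CPM in wild-type, 1374 in Eed-/-, 196 in Jarid2-/- and 0.717 in Ezh2-/-. In Eed-/- cells it was 1.62-fold higher than in wild-type (1.59 to 1.64), the only member above wild-type in any mutant, though under the 2-fold limit. The ratio was 1.48 with TMM scaling and 1.39 under median-ratio size factors. It was 2.65, past the limit, under the reads-per-million denominators. In Jarid2-/- it had the smallest fold among the 10 most abundant members, 4.33 (4.11 to 4.55), and in Ezh2-/- it was 1185-fold lower (790 to 1870). Its level in Eed-/- was 6.99-fold that in Jarid2-/- (6.66 to 7.35) and 1916-fold that in Ezh2-/- (1277 to 3022). The other arm of the hairpin followed the group, with 193 CPM in wild-type, 21.1 in Eed-/-, 15.2 in Jarid2-/- and 0.156 in Ezh2-/-, so miR-541-3p was 9.13-fold lower (8.49 to 9.82) in Eed-/-. A microRNA above wild-type in Eed-/- was not particular to this group. Of 44 tested upstream Mirg loci 1 was past the 2-fold limit, and 1 of 26 from Gtl2 to anti-Rtl1. The highest log2 ratios there were 1.04 and 1.05, against 0.69 for miR-541-5p.

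MiR-382-5p and miR-134-5p, from hairpins 364 bp apart, had nearly the same level in wild-type but not in Eed-/- or Jarid2-/-. MiR-382-5p was at 738 CPM in wild-type, 121 in Eed-/-, 42.3 in Jarid2-/- and 1.15 in Ezh2-/-. MiR-134-5p, a brain microRNA that restrains dendritic spine growth through Limk1 and that acts on pluripotency genes in differentiating ES cells, was at 728, 184, 117 and 0.998 CPM. It was 3.96-fold lower (3.85 to 4.06) in Eed-/- and 6.22-fold lower (5.83 to 6.63) in Jarid2-/-, against 6.09-fold (5.91 to 6.29) and 17.4-fold (15.7 to 19.4) for miR-382-5p. In Ezh2-/- the intervals of both overlapped, at 730-fold (517 to 1067) and 640-fold (464 to 909).

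The 4 remaining microRNAs of the 10 most abundant were miR-409-5p, both arms of miR-369 and miR-410-3p. MiR-409-5p was at 515 CPM in wild-type, 57.2 in Eed-/-, 27.6 in Jarid2-/- and 0.811 in Ezh2-/-. MiR-369-3p, a microRNA used with others to reprogram somatic cells, was at 357, 48.4, 29.1 and 0.281 CPM, and miR-369-5p at 347, 77.3, 33.3 and 0.312 CPM. MiR-410-3p, known in pancreatic beta cells for its effect on insulin secretion, was at 289.99, 23.7, 8.84 and 0.249 CPM. It lay 12.2-fold below wild-type (11.4 to 13.1) in Eed-/- and 32.8-fold (26.1 to 41.8) in Jarid2-/-, the second largest fold of the 10 in the latter. All 4 had the order wild-type, Eed-/-, Jarid2-/-, Ezh2-/-, from highest to lowest, which 24 of the 29 members with at least 10 wild-type counts showed. Of all 940 loci with that many counts 13.2% had this order, and 4.3% of those outside the Gtl2-Rian-Mirg locus.

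The other 21 members were at 0 to 210.1 CPM in wild-type (median 22.7), 0 to 31.1 CPM in Eed-/- (median 2.70), 0 to 25.1 CPM in Jarid2-/- (median 2.71) and 0 to 0.343 CPM in Ezh2-/- (median 0). The most abundant of them, miR-539-5p, known from studies of mitochondrial fission in heart muscle cells, was 10.1-fold lower (9.39 to 10.8) in Eed-/-, 12.7-fold (10.8 to 15.2) in Jarid2-/- and 749-fold (394 to 1638) in Ezh2-/-. MiR-377-3p, studied in diabetic kidney disease, was at 100.03 CPM in wild-type, 9.06 in Eed-/-, 3.77 in Jarid2-/- and 0.0624 in Ezh2-/-. MiR-485-5p, at 38.5 CPM in wild-type, 2.20 in Eed-/-, 2.71 in Jarid2-/- and 0 counts in Ezh2-/-, had the largest fold in Eed-/-, 17.5 (14.1 to 21.9). MiR-382-3p had the largest ratio in Ezh2-/-, 2130-fold, but from 1 count there, with an interval of 382 to 84179. It was at 66.4 CPM in wild-type, 14.4 in Eed-/- and 5.89 in Jarid2-/-.

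Beside miR-541-5p, 3 members with low counts were not counted as lower in Eed-/-. MiR-412-5p had 69 counts there and 58 in wild-type, which put its level 1.49-fold lower (1.04 to 2.15). MiR-410-5p had 114 and 120 counts, a 1.87-fold lower level (1.44 to 2.44). MiR-3072-5p had 64 and 73 counts, a 2.03-fold lower level (1.43 to 2.88) that fell short of the limit once 1 CPM was added. All 3 are the rarer arm of their hairpin. In Jarid2-/- the member not counted as lower was again miR-410-5p, with 18 counts and a level 2.38-fold lower (1.44 to 4.15).

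**Figure D2:**
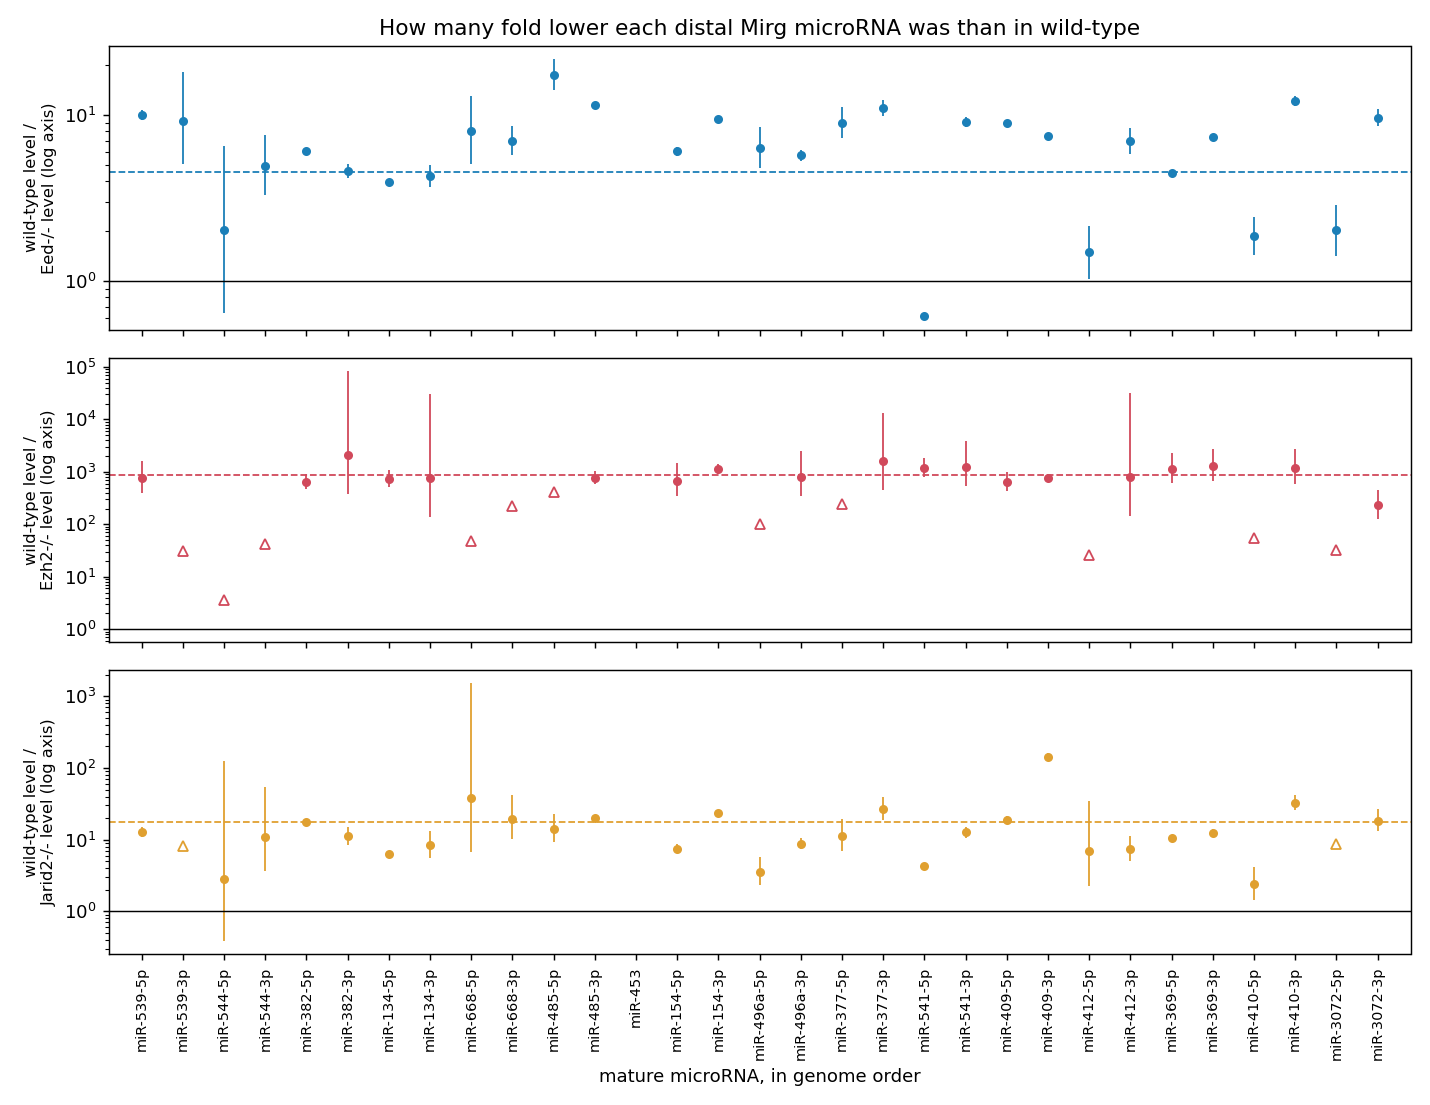
Wild-type level divided by mutant level for each member in genome order, on a log axis, in Eed-/- (top), Ezh2-/- (middle) and Jarid2-/- (bottom). Bars are exact 95% counting intervals, open triangles are lower bounds for members at 0 counts, the dashed line is the fold of the summed members (4.53, 865 and 17.6) and the solid line marks equal levels. MiR-541-5p in Eed-/- is the single point below the solid line, and miR-409-3p in Jarid2-/- lies far above the dashed line at 141.96.

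In Ezh2-/- cells the group was close to undetected. Of the 31 members 12 had 0 counts, and 10 of these were among the 29 tested, where 0 counts put the level at least 26.1-fold (miR-412-5p) to at least 412-fold (miR-485-5p) below wild-type. Only 9 members kept 10 or more counts, led by miR-409-3p with 181, miR-154-3p with 94 and miR-485-3p with 55. The folds of 8 of the 9 lay between 635 and 1185. The ninth, miR-3072-3p, the most distal member, had 11 counts and was 229-fold lower (128 to 459), an interval that lies below that of the summed group. Adding 1 CPM shrinks ratios of such low levels, and the median log2 ratio of -6.57 became -9.51 with nothing added and counts of 0 set to 3.

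The make-up of the group, which does not depend on how the columns are scaled to each other, had another leading microRNA in Eed-/- and Jarid2-/- than in wild-type and Ezh2-/-, the last from 519 counts. In wild-type, miR-409-3p held 31.3% of the members' counts, miR-154-3p 23.7%, miR-485-3p 9.57% and miR-541-5p 6.07%. In Ezh2-/- the same 3 led, with 34.9% (miR-409-3p), 18.1% (miR-154-3p) and 10.6% (miR-485-3p), and miR-541-5p held 4.43%. In Eed-/- miR-541-5p held 44.5% and was first, before miR-409-3p with 18.9% and miR-154-3p with 11.4%. In Jarid2-/- miR-541-5p was again first with 24.6%, followed by miR-154-3p with 17.8% and miR-134-5p with 14.7%, while miR-409-3p was seventh with 3.87%. Across all 31 members the rank correlation with wild-type counts was lowest for Ezh2-/-, at 0.94 against 0.97 for both other mutants. The Pearson correlation of log2 levels with 1 CPM added was 0.79 for Ezh2-/-, 0.94 for Eed-/- and 0.93 for Jarid2-/-. In Ezh2-/- 12 members were tied at 0 counts, and adding 1 CPM compresses levels this low. Its lower correlations therefore cannot be read as a more altered make-up. All these correlations describe members that share their columns and part of their sequence.

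**Figure D3:**
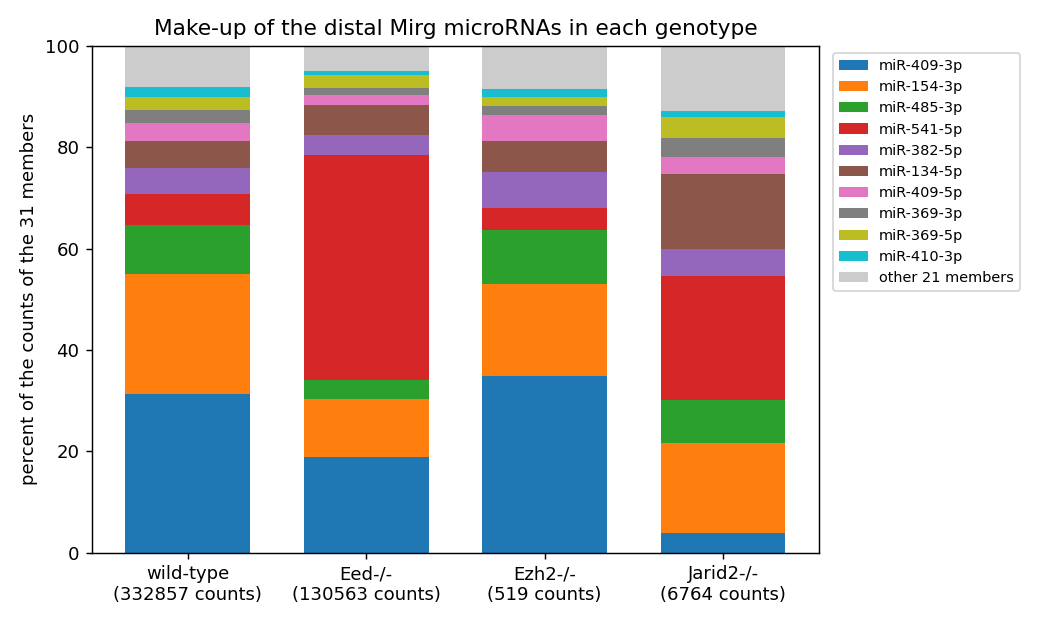
Percent of the members' summed counts taken by each of the 10 most abundant members in wild-type and by the other 21 together, with 1 bar per genotype and the total counts under it. MiR-541-5p (red) takes 44.5% in Eed-/- and 24.6% in Jarid2-/- against 6.07% in wild-type and 4.43% in Ezh2-/-, and miR-409-3p (blue) takes 3.87% in Jarid2-/- against 31.3% in wild-type.

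Neighbouring hairpins could differ in fold. With both arms summed, miR-134 was 3.97-fold lower (3.86 to 4.07) in Eed-/- and miR-485, 765 bp downstream, 11.7-fold lower (11.4 to 12.1). The Jarid2-/- levels of these hairpins were 6.27-fold (5.88 to 6.68) below wild-type for miR-134 and 19.9-fold (18.4 to 21.7) for miR-485. MiR-541 and miR-409, 750 bp apart, were at the 2 ends of the Jarid2-/- range, 4.92-fold (4.69 to 5.17) and 83.8-fold (76.7 to 91.7). In Ezh2-/- the 13 hairpins with counts ranged from 238-fold for miR-3072 to 1312-fold for miR-377, the latter from 2 counts with an interval of 449 to 6366.

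The 2 arms of a hairpin come from the same precursor, so their ratio is a readout apart from the level of the transcript. In wild-type 11 of the 15 hairpins with both arms in the tables had more 3p than 5p counts, and miR-539, miR-382, miR-134 and miR-541 had more 5p. For miR-541 the 5p share was 98.5% (98.4 to 98.6%) in Eed-/- and 92.8% (91.5 to 94.0%) in Jarid2-/-, above the 81.5% (81.0 to 82.0%) of wild-type, with 82.1% (63.1 to 93.9%) in Ezh2-/-. For miR-409 it was 47.2% (42.7 to 51.7%) in Jarid2-/-, against 10.5% (10.3 to 10.7%) in wild-type, with 8.93% (8.60 to 9.28%) in Eed-/- and 12.6% (8.37 to 17.9%) in Ezh2-/-. For miR-410 it was 1.71% (1.42 to 2.04%) in wild-type, where Eed-/- had 10.2% (8.48 to 12.1%), Jarid2-/- 19.4% (11.9 to 28.9%) and Ezh2-/- 0 of 8 counts. That of miR-134 stayed between 96.9% and 97.6% in all 4 columns.

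Counting intervals of the 5p share lay apart from wild-type for 9 of 15 hairpins in Eed-/-, 7 of 15 in Jarid2-/- and 0 of 13 in Ezh2-/-, where counts were few. Over all hairpins with counts in both columns these shares were 31.8% of 591 in Eed-/-, 29.8% of 520 in Jarid2-/- and 21.7% of 557 in Ezh2-/-, many of them with fewer counts. A second measure required more counts. Among hairpins with at least 100 counts on both arms in both columns, the ratio of 5p to 3p differed from wild-type at least 4-fold for 15.2% of 151 hairpins in Eed-/-, 6.9% of 116 in Ezh2-/- and 17.7% of 96 in Jarid2-/-. Of the members that met this minimum, 2 of 8 in Eed-/- (miR-541 and miR-410) and 1 of 4 in Jarid2-/- (miR-409) did so, while none met it in Ezh2-/-. The log2 difference of miR-541 in Eed-/- was 3.88, exceeded in size by 3 of the 151 hairpins, and that of miR-409 in Jarid2-/- was 2.93, exceeded by 7 of the 96.

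**Figure D4:**
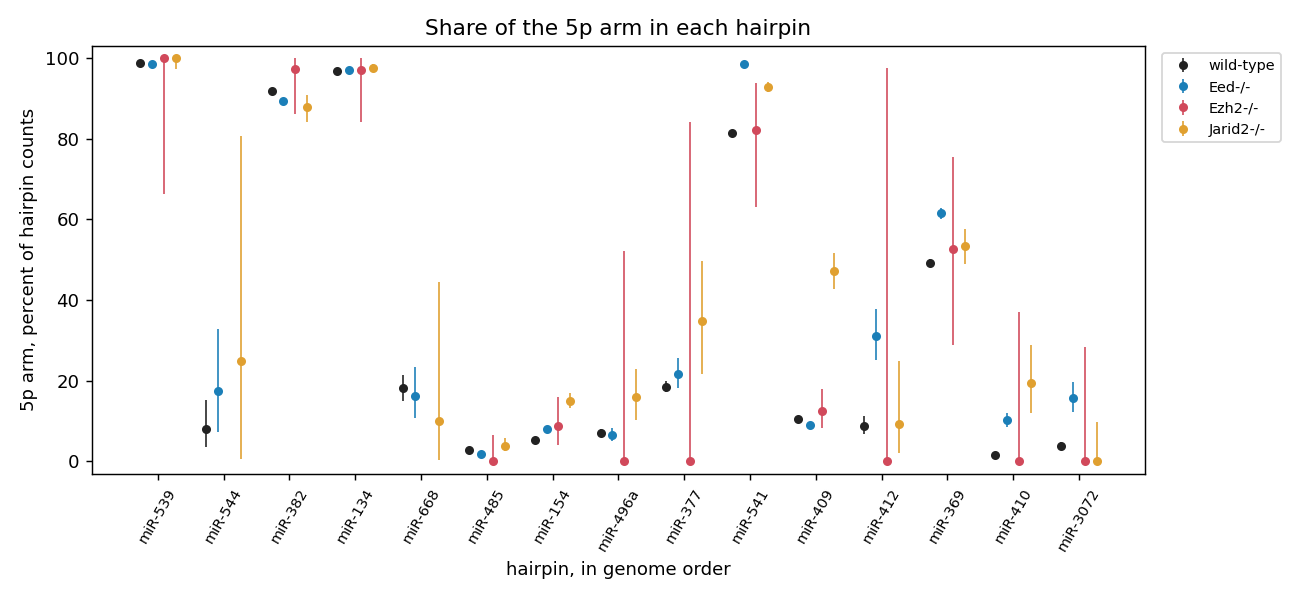
Share of the 5p arm in the counts of each hairpin, in percent, for the 15 hairpins with both arms in the tables, in genome order, with 1 point per genotype and exact 95% intervals. MiR-541 in Eed-/- (98.5% against 81.5%) and miR-409 in Jarid2-/- (47.2% against 10.5%) stand apart from wild-type, and the Ezh2-/- intervals are wide because few counts remained.

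In direct comparison of Eed-/- with Jarid2-/-, 10 of 29 tested members were higher in Eed-/-, 0 were lower and 19 were within the 2-fold limit. Of all 1073 loci tested 18.9% were higher and only 77 lower, so few lower members would be looked for. MiR-496a-5p stood the other way, with an Eed-/- level 0.558 of that in Jarid2-/- (0.342 to 0.942). MiR-485-5p was at 0.811 of it, with an interval that spans equal levels (0.510 to 1.34). The largest differences were those of miR-409-3p, 18.9-fold (16.7 to 21.4), and miR-541-5p, while miR-134-5p differed by 1.57-fold (1.47 to 1.68) and miR-154-5p by 1.24-fold (1.07 to 1.44). Against Ezh2-/-, 26 of 29 members were higher in Eed-/- (35.7% of 1091 loci), and all 23 tested members were higher in Jarid2-/- (33% of 930 loci). Only 9 members had at least 10 counts in Ezh2-/-, and the others met the minimum through the other column alone. For members at 0 counts in Ezh2-/-, the minimum fixed the outcome in Jarid2-/-, since 10 counts there already pass the 2-fold limit. Among the members with at least 10 counts in both columns, Jarid2-/- came nearest to Ezh2-/- in miR-409-3p, at 5.47-fold (4.51 to 6.65), where the summed group differed 49.3-fold.

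The upstream Mirg microRNAs, 46 loci from miR-379 to miR-487b, are the nearest comparison. They were 8.21-fold lower (8.15 to 8.26) in Eed-/-, 1044-fold (968 to 1127) in Ezh2-/- and 17.5-fold (17.2 to 17.9) in Jarid2-/-. Of 44 tested upstream loci 39, 43 and 42 were lower in the same order. The Gtl2 to anti-Rtl1 microRNAs summed to 7.42-fold, 1179-fold and 18.3-fold lower levels, and the 6 Rian loci to 6.46-fold, 556-fold and 7.77-fold. The lower levels were thus shared across the locus. Of all Mirg counts the distal members held 38.8% (38.7 to 38.9%) in wild-type and 53.4% (53.2 to 53.6%) in Eed-/-. Their part was 38.7% (38.0 to 39.5%) in Jarid2-/- and 43.4% (40.5 to 46.2%) in Ezh2-/-. Without miR-541-5p it was 37.3% in wild-type, 38.9% for Eed-/-, 32.3% for Jarid2-/- and 42.2% for Ezh2-/-. The distal and upstream folds in Eed-/- thus differed mostly through that microRNA, since without it they were 7.67 and 8.21. The upstream sum still included its own locus counted as higher in Eed-/-.

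Markers of other cell types were examined in the same columns. The fibroblast and mesenchymal list (miR-199, miR-214, miR-143 and miR-145, 12 loci) summed to 1915 CPM in wild-type and to 1109 (Jarid2-/-), 707 (Ezh2-/-) and 686 (Eed-/-) in the mutants. Of its 10 tested loci 7, 8 and 3 were lower in Eed-/-, Ezh2-/- and Jarid2-/-, where 15%, 24.5% and 22.8% of all loci were. In the same order 0, 2 and 1 of the 12 were at 0 counts. The sum of this list was thus lower in all 3 mutants, as that of the distal Mirg microRNAs was. In Jarid2-/- its number of lower loci was near the share of all loci, unlike that of the Mirg members. Its levels in Eed-/- and Ezh2-/- were close, while the summed Mirg members differed 191-fold (175 to 208) between those columns. The ES cell miR-302 cluster held 0.522% (Ezh2-/-) to 1.56% (Eed-/-) of counts, with 0.774% in wild-type, and the miR-290 cluster 38.2% to 45.9% across the columns. Of 14 tested miR-290 loci 8, 4 and 6 were higher in Eed-/-, Ezh2-/- and Jarid2-/-, and 0, 2 and 1 lower. Of 10 miR-302 loci 5, 0 and 6 were higher in the same order, and 0, 1 and 0 lower. Of all loci 17.5%, 4.9% and 16.3% were higher. Neural microRNAs (miR-124 and miR-9, 12 loci) summed to 3287 CPM in wild-type, 3447 (Eed-/-), 5434 (Ezh2-/-) and 596 (Jarid2-/-), with 3 of 12 lower and 3 higher in Jarid2-/- and no locus at 0 counts. Blood microRNAs (7 loci) summed to 5886 CPM in wild-type, 4627 (Eed-/-), 9341 (Ezh2-/-) and 2869 (Jarid2-/-), with 1 locus at 0 counts in each column. Both lists thus had their lowest sum in Jarid2-/-, and in Ezh2-/-, where the Mirg members were lowest, their highest. Single loci were split, since 3 of the 12 neural loci were lower and 3 higher in Ezh2-/-. In Eed-/- 0 neural loci were lower and 6 higher. Of 5 tested blood loci 0 were lower and 1 higher in Ezh2-/-, and 2 were lower and 1 higher in Jarid2-/-. In Eed-/- 3 blood loci were lower and 1 higher. The let-7 family held 0.0284% (Ezh2-/-) to 0.137% (Jarid2-/-) of counts. Its higher loci were 5 of 21 tested in Eed-/-, 0 of 20 in Ezh2-/- and 8 of 19 in Jarid2-/-, and its lower loci 0, 3 and 1. The part of these lists in the results was not tested. In bulk RNA, fewer cells expressing a microRNA and less of it per cell cannot be told apart.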

How the data were processed

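Small RNA of 18 to 40 nt was gel-selected and sequenced on a SOLiD instrument, per the labels' protocols. Cutadapt, Bowtie and build mm9 are listed in the submitters' processing notes. Their versions, their settings and how multiply matching reads were treated were not given in the sources used here. Each of the 4 deposited tables holds, per the file headers, the read count for 2035 miRBase release 20 mature loci and the authors' RPM (reads-per-million) value. Columns were assigned to genotypes by name. That for Ezh2-/- names the gene, and that for Eed-/- holds Eed only within the letters HEED. The Jarid2-/- column uses the older name Jumonji, and that for wild-type names the CJ7 line, which is the least direct. Whether a column pools both labelled samples is not stated.

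CPM was the deposited count scaled to counts-per-million over all microRNA loci. The RPM values of the authors served only for their denominators, which ranged from 62259756 (Jarid2-/-) to 267248746 (Eed-/-). Ratios had 1 CPM added for counting members as lower or higher (2-fold, at least 10 counts in 1 of 2 columns), and folds had none. Intervals are exact binomial (Clopper-Pearson for shares) from scipy 1.17.1, or Poisson for levels. Alternatives were TMM factors (edgeR 4.0.16), median-ratio size factors (DESeq2 1.42.0), RPM denominators, 0.1 or 10 CPM added, no minimum or 100 counts, summed arms, thinning to the Jarid2-/- total and leaving out 1 member. The procedure was run on simulated counts with counting error alone and with folds smaller than those seen in Ezh2-/-. This cannot show how much columns of the same genotype would vary. Members were named when they were among the 10 most abundant in wild-type, above wild-type in any mutant, or had the highest or lowest fold in a mutant, and others with at least 50 counts in 1 column could be named. MiR-453 and miR-544-5p, with fewer counts, were named after their values were seen, to account for every member. The members and lists were chosen with earlier results of these data known. Chromatin and messenger RNA samples were not analysed here.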

Additional observations from a re-analysis of the deposited data

Results flagged for a closer look

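MiR-541-5p was the one distal Mirg microRNA whose direction differed between mutants. It was 1.62-fold higher than wild-type in Eed-/- and lower in Ezh2-/- (1185-fold) and Jarid2-/- (4.33-fold). With 1 column per genotype the difference between the mutants was not tested.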

How the results depend on the processing

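The summed level of the distal Mirg microRNAs stayed below wild-type in all 3 mutants under every alternative run. In Eed-/- it was 4.94-fold lower with TMM factors, 5.28-fold with median-ratio size factors, 2.77-fold with RPM denominators, 3.84-fold without the most abundant member (miR-409-3p) and 7.67-fold without miR-541-5p, the last chosen after seeing the data. In Ezh2-/- it was 522-fold, 604-fold and 635-fold lower with the 3 scalings, and in Jarid2-/- 19.1-fold with median-ratio size factors, 12.4-fold with RPM denominators, 12.5-fold without miR-409-3p and 21.9-fold without miR-541-5p. With arms summed per hairpin, which leaves 15 units to test, 14 were lower in Eed-/-, 15 in Ezh2-/- and 15 in Jarid2-/-. Other alternatives kept the number of lower members within 21 to 25, 22 to 29 and 22 to 29 in the same order. With RPM denominators 1 member, miR-541-5p, was higher in Eed-/-. For 12 named members, 99 of 180 alternative log2 ratios moved by more than the counting interval and 81 did not. That 0 changed sign says little. A change in the CPM added cannot reverse a sign, and the largest scaling shift of a column was -0.729 log2 (Ezh2-/-, TMM). The median of all loci moved with the scaling, in Eed-/- from 0.08 to 0.52 and in Ezh2-/- from -0.44 to 0.09, and the members' median minus it ranged over -2.41 to -2.62 for Eed-/-, -6.13 to -6.61 for Ezh2-/- and -3.08 to -3.14 for Jarid2-/-. Depth was lowest in Jarid2-/-, where 0 counts allow up to 0.354 CPM, and the low levels in Ezh2-/- left 12 members at 0 counts. No paired analysis was possible because each genotype has 1 column of counts, and for the same reason no replicate could be left out.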
